A study of Homo sapiens with 24 samples.

Results

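The germinal centre is the site in lymphoid tissue where B cells mutate their antibody genes and are selected, and the B cells found there carry a recognisable set of transcripts. The levels of 9 such marker genes were examined in Burkitt lymphoma cells that were made to produce the microRNA miR-28: SERPINA9, MME, MYBL1, LMO2, GCSAM, S1PR2, P2RY8, CD38 and MEF2B. They were chosen by name, and every probe set whose single gene symbol in the platform annotation was one of the 9 was taken (GCSAM under its older symbol GCET2 as well). A probe set is a group of short array probes summarised to 1 value. By this rule 8 of the 9 genes had values, on 13 of the 54613 probe sets that were not controls. The only probe set annotated to MEF2B also carried other symbols, 3 in all, so no value is given for MEF2B. All 8 measured markers lay above the filter on low values, as did 11380 of the 19775 genes with a single-symbol probe set.

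P3HR1, a cell line established from a Burkitt lymphoma, carried a doxycycline-inducible pRTS1 vector that produced green fluorescent protein (GFP) alone in control cells and GFP with the miR-28 precursor in miR-28 cells. There were 2 bulk populations, A and B, for each vector. Each had inductions numbered 1 to 3 at 12 h and at 24 h, which gave 4 groups of 6 arrays. Whether arrays of the same number at 12 h and 24 h share an induction is not known here. All groups received doxycycline, so no uninduced cells were compared. The labels give the dose as 0.1 ug/ml in one field and 1 ug/ml in another, with the same entries in every group. The populations differed in vector and may have differed before induction, which cannot be told apart from an effect of the microRNA. The level of miR-28 itself was not analysed here, so it offers no check of the labels.

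A microRNA pairs with messenger RNAs mainly through its seed, the bases from position 2 to position 8 of the mature strand, and lowers their stability or translation. Burkitt lymphoma cells descend from germinal centre B cells and keep much of their programme, which is maintained by transcription factors such as BCL6, TCF3 and MEF2 proteins. The markers examined here are surface proteins, enzymes, transcriptional regulators and receptors that hold B cells within the germinal centre, and several are used to classify lymphomas.

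A precursor can give a mature strand from each arm, here miR-28-3p and miR-28-5p. The 3p strand is shown to display its seed, in capitals, as RefSeq gives it (GRCh38.p14, chr3:188688834-188688855, plus strand).

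hsa-miR-28-3p: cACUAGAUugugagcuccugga

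Promoter windows from RefSeq (GRCh38.p14), from 250 bases before to 50 after a transcription start, were matched for 7 of the 9 markers, in 11 windows. The octamer ATGCAAAT, the letters bound by the B-cell factor POU2F2 with its coactivator POU2AF1, was found on either strand in 1 window each of SERPINA9, P2RY8 and MEF2B, against 1.77% of 35116 windows in the table. SERPINA9 held 2 octamers, 37 bases apart, inside a direct repeat of 37 bases. The stretches below are shown for these octamers, which stand in capitals on the reverse strand, and SERPINA9 is also the marker with the largest difference between miR-28 and control cells. The SERPINA9 stretch is the 250 bases before its start, chr14:94476198-94476447, and that of P2RY8 is 252 bases that end with the octamer at its start, chrX:1537184-1537435. Both genes are on the minus strand, and the letters run in the direction of transcription.

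SERPINA9 promoter: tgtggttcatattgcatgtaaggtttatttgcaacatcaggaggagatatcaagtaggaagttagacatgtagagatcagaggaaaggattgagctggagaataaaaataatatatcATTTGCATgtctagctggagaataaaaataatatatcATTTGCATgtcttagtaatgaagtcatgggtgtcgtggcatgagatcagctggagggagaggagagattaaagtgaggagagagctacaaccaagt
P2RY8 promoter: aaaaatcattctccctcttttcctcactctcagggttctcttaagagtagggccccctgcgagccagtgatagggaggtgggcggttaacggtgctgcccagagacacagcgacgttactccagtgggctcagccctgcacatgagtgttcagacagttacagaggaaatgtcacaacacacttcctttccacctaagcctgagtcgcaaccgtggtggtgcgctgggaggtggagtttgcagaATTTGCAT

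No window of the markers held the BCL6 core TTCCTNGAA (1.56% of all windows) or the MEF2 motif (2.99%). An E-box, CANNTG, was found in 10 of the 11 windows, from all 7 matched markers, against 68.7% of all windows. The MYB core AACNG was found in 7 of the 11 windows, from 6 markers, against 77.2% of all windows. In SERPINA9 an E-box overlapped each octamer. These matches describe letters in the windows and were not tested against the array values.

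Array values were intensities from the MAS5 algorithm, which scales each array to a common trimmed mean (500.07 to 500.08 on the 24 arrays). Levels below are linear intensities with mean ± SD over 6 arrays, and differences are on the scale of log2(intensity + 8) with their standard error. Genes were called at an adjusted p under 0.05 from limma, with adjustment over all 11380 genes. The 8 measured B-cell markers of a fixed list, among them MS4A1, CD79A and PAX5, were all above the filter. Their summed intensity was 64580 to 70890 in control and 62740 to 69460 in miR-28 cells at 12 h. At 24 h it was 54200 to 60570 and 56400 to 62290. In control cells 7 of the 8 were lower at 24 h than at 12 h, 3 of them called, where 6.14% of all genes were called. In miR-28 cells 6 were lower, with 1 called as lower and 1 as higher, where 4.66% of all genes were called. Of the defining markers of T cells, NK cells, myeloid cells and stromal or epithelial cells, 2 of 8, 2 of 6, 3 of 8 and 4 of 10 were above the filter, and none of them was called at either time. The brightest were DCN, a stromal matrix gene (mean 515), and PRF1, the perforin gene of NK and T cells (379), while CD14, TRAT1 and CD8A averaged 19.1, 9.43 and 14.6. The summed NK markers ran from 405 to 569 in control and 522 to 1241 in miR-28 cells at 12 h, and from 323 to 549 and 382 to 1151 at 24 h. PRF1 was at 0.74 ± 0.41 at 24 h (adjusted p 0.341). The summed markers of B-cell precursors ran from 409.5 to 576 in control and 216 to 440.3 in miR-28 cells at 24 h, with 3 of 6 genes above the filter and none called. The ACTB control probe sets, whose 3′ over 5′ signal grows as RNA degrades, gave a log2 ratio of at most 1.59 (control array B2 at 24 h) and next 1.05 (miR-28 array B2 at 12 h). BANK1, BLNK and CD79B, 3 of the 8 B-cell markers, were called as higher in miR-28 cells at 24 h, where 5.35% of all genes were called. The other B-cell markers were not called, and the part of these marker levels in the results below was not tested. In such bulk samples fewer cells of a type and less RNA per cell cannot be told apart, and p-values measure the spread between repeated inductions of 2 populations per vector.

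SERPINA9, a serine protease inhibitor first described in germinal centre B cells (also called centerin or GCET1), was the only marker called at a single time. It was also the dimmest measured marker, with a mean log2 of 8.57, where the brightest probe sets of the others ran from 10.09 to 12.09. It was lower in miR-28 than in control cells after 24 h by 0.66 on the log2 scale. MYBL1, a MYB-family transcription factor of centroblasts, and LMO2, a bridging protein of transcription factor complexes, had lower means at both times, by 0.25 to 0.35, and were called only when the times were averaged. MME (CD10) was nominally higher at 24 h, and GCSAM, S1PR2, P2RY8 and CD38 differed by at most 0.12 at either time, with no call. The plot of intensities by array shows the values on which these statements rest.

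**Figure D1:**
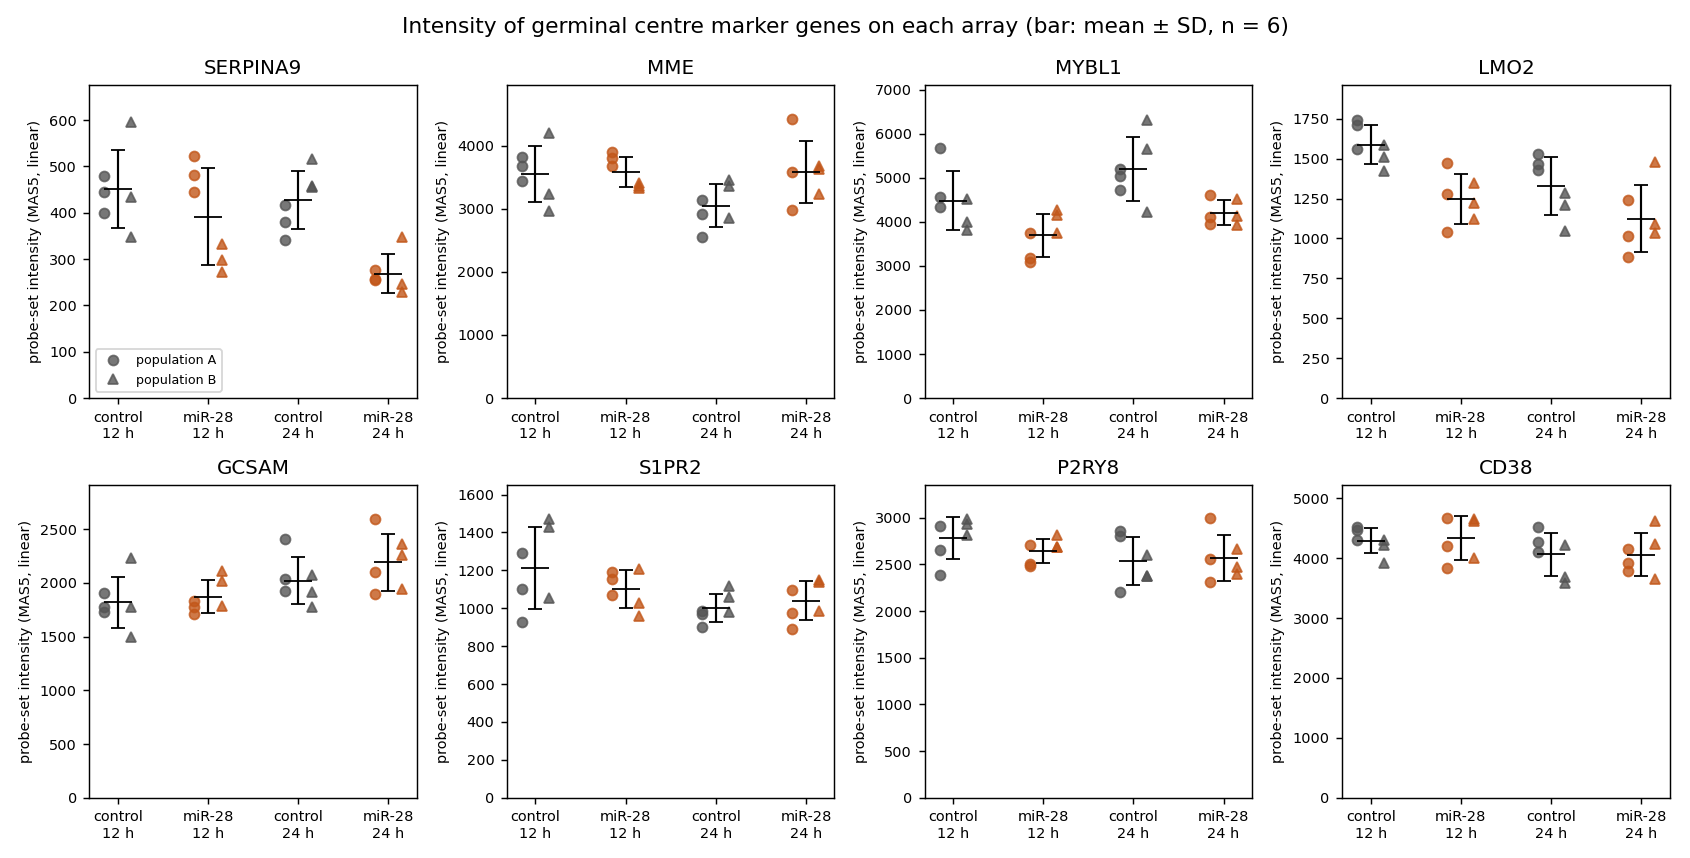
Probe-set intensity (linear MAS5 scale, vertical axis from 0) of the brightest probe set of each of the 8 measured markers on every array, by group on the horizontal axis. Circles are population A and triangles population B, grey is control and orange miR-28, and bars give mean ± SD (n = 6). SERPINA9 at 24 h averages 428 in control and 268 in miR-28 cells, while CD38 averages 4065 and 4060.

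The comparison at 24 h asked which marker transcripts differed between miR-28 and control cells after a day of induction. For SERPINA9 (probe set 1553499_s_at, its only one) the 6 control arrays ran from 340.3 through a median of 437 to 517, and the 6 miR-28 arrays from 228 through 256 to 347. All 6 miR-28 arrays lay below the control median and 5 lay below every control array. The groups overlapped through 1 array, miR-28 B3 (347), and control A1 (340.3). The means were 428 ± 62.7 and 268 ± 41.5, a difference of -0.66 ± 0.15 (log2, 95% interval -0.97 to -0.34; limma adjusted p 0.0119), or 1.58-fold lower. Over all probe sets the adjusted p was 0.0204.

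SERPINA9 was thus 1 call among 8 markers at 24 h, where 5.35% of all genes were called. Over probe sets the count was 1 of 10 above the filter, against 2.75% of all probe sets. The arrays of both genotypes overlapped for all 8 markers, while they were fully separated for 3.5% of all genes. Both miR-28 population means, 263 in A and 274 in B, lay below both control population means, 379 and 477. The letters are not known to pair control with miR-28 populations. With the arrays labelled A alone the difference was -0.51 (adjusted p 0.116). With those labelled B alone it was -0.80 (adjusted p 0.16), so neither was called with 3 arrays a group. Without both arrays of high ACTB ratio it was -0.63 (adjusted p 0.0221).

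At 12 h no marker was called, where 0.536% of genes were called, and none of 10 marker probe sets was, against 0.165% of all probe sets. SERPINA9 in control cells ran from 349 through 440 to 596 (450.6 ± 84.2), and in miR-28 cells from 272 through 388 to 523 (392 ± 105). The difference was -0.22 ± 0.15 (limma adjusted p 0.727). The miR-28 arrays fell into separate ranges by population. Population A lay at 445, 482 and 523, all within the control range, whereas B lay at 272, 297 and 332, all below every control array. With the arrays labelled A alone the difference at 12 h was 0.13 and with those labelled B alone -0.57.

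Between the miR-28 populations at 12 h SERPINA9 differed by -0.67 ± 0.17 (B minus A; unadjusted p 0.000759, adjusted p 0.326 in a limma fit by population, chosen after the array values were seen). No gene passed in that comparison or in either control comparison of populations (0% called), and 0.00879% of genes passed between the miR-28 populations at 24 h, none of them a marker. At 24 h the SERPINA9 means of the miR-28 populations differed by 0.04 ± 0.17. The letters A and B name populations within a genotype and are not known to pair control with miR-28 populations.

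From 12 h to 24 h SERPINA9 differed by -0.50 ± 0.16 in miR-28 cells (adjusted p 0.073) and by -0.07 ± 0.16 in control cells (adjusted p 0.875). Set against the effect at 12 h, that at 24 h was lower, by -0.44 ± 0.22 (95% interval -0.90 to 0.03; limma adjusted p 0.754). No gene passed that test of all 11380 (0% called, 787 at an unadjusted p under 0.05), so a larger effect at 24 h than at 12 h was not shown. Without miR-28 array B1 at 12 h the change with time was -0.60 (adjusted p 0.0338), and in population A alone it was -0.86 (adjusted p 0.0397).

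MYBL1 encodes A-Myb, a relative of MYB with high levels in dividing germinal centre B cells. Its brightest probe set, 213906_at, gave 3807, 4429 and 5688 (lowest, median and highest; mean 4487 ± 661) in control cells at 12 h. In miR-28 cells at that time it gave 3093, 3749 and 4277 (3699 ± 487). The control arrays at 24 h lay at 4228, 5125 and 6306 (5194 ± 725), and the miR-28 arrays at 3929, 4127 and 4609 (4212 ± 289). At each time all 6 miR-28 arrays lay below the control median and 4 of 6 below every control array. The differences were -0.28 ± 0.10 at 12 h (adjusted p 0.347) and -0.29 ± 0.10 at 24 h (adjusted p 0.0984).

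A second MYBL1 probe set, 231268_at, was dim (mean log2 7.09) and had no resolution for such a difference, at -0.06 ± 0.48 and -0.28 ± 0.48. Another, 237014_at, lay below the filter, at 5.79 to 166.4. Population spread was also visible for this gene. At 12 h the miR-28 means were 3340 in A and 4058 in B, and the control means 4867 and 4107. Both miR-28 means lay below both control means. With the arrays labelled A alone the difference at 12 h was -0.54, and with those labelled B alone -0.02. The letters are not known to pair control with miR-28 populations, so this split cannot place the difference in a single population.

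LMO2 has no DNA-binding domain of its own and links LDB1 with factors such as LYL1, and its protein is a favourable marker in large B-cell lymphoma. Its probe set above the filter, 204249_s_at, gave 1423, 1573 and 1741 (1589 ± 121) for control at 12 h, against 1042, 1249 and 1476 (1246 ± 156) for miR-28. In this comparison 5 of 6 miR-28 arrays lay below every control array, and the difference was -0.35 ± 0.11 (adjusted p 0.235). At 24 h control cells gave 1044, 1357 and 1528 (1328 ± 182) and miR-28 cells 882, 1062 and 1477 (1124 ± 209), a difference of -0.25 ± 0.11 (adjusted p 0.227). Here the control populations stood apart, at 1475 in A and 1181 in B. The miR-28 means were 1048 in A and 1200 in B, the latter above the control mean of B. With the arrays labelled B alone the difference at 24 h was 0.01, and with those labelled A alone -0.50. As the letters are not known to pair, this split cannot place the lower level in a single population either.

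The effect averaged over both times was computed after the values at each time were seen. It called 3 of 8 markers, all lower in miR-28 cells, where 7.54% of all genes were called. SERPINA9 was at -0.44 ± 0.10 (limma adjusted p 0.0115), MYBL1 at -0.28 ± 0.07 (adjusted p 0.0135) and LMO2 at -0.30 ± 0.08 (adjusted p 0.0162), or 1.36-fold, 1.22-fold and 1.23-fold lower. With the arrays labelled A alone or B alone none was called, and the letters are not known to pair. The averages were, in that order, -0.19 and -0.69 for SERPINA9, -0.39 and -0.18 for MYBL1, and -0.46 and -0.14 for LMO2. With the mean of its probe sets MYBL1 was at -0.23 and was not called (adjusted p 0.492). The other markers lay between -0.04 and 0.12. The median over the 8 markers was -0.03, against 0.02 over all genes. With the means of the populations as the unit of replication no marker was called, with an adjusted p of 0.291, 0.25 and 0.246 for the 3 genes, and that fit called no gene at all at either time.

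**Figure D2:**
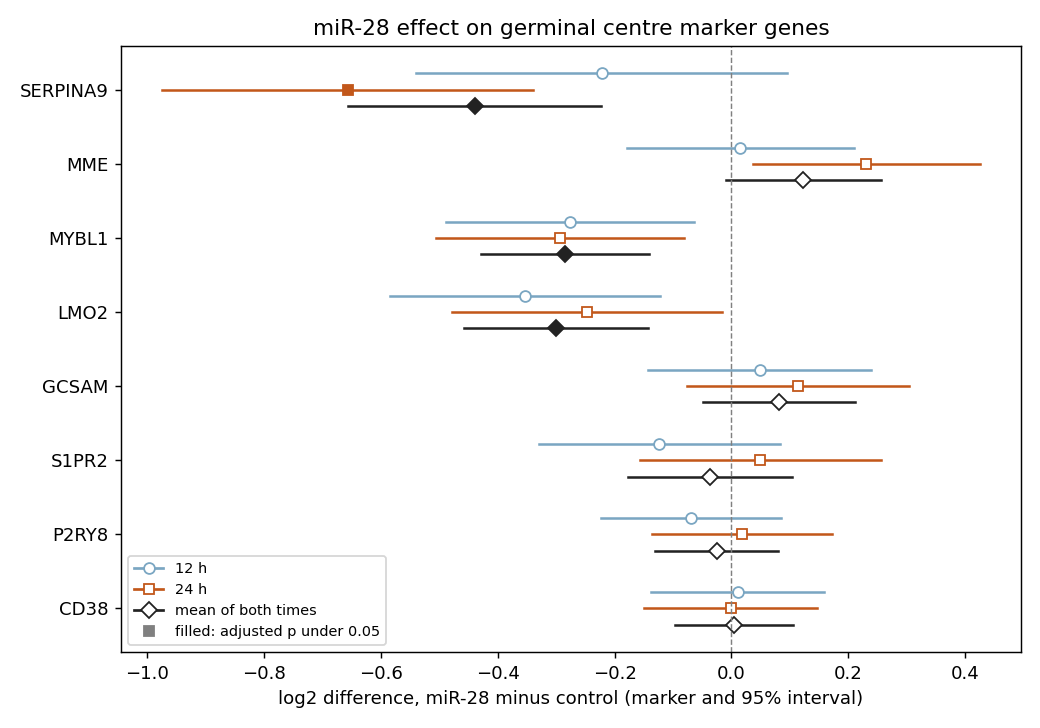
Difference between miR-28 and control cells (log2, horizontal axis) for the 8 measured markers, with 95% intervals from limma, at 12 h (blue circles), at 24 h (orange squares) and averaged over both times (black diamonds); filled symbols have an adjusted p under 0.05. SERPINA9 at 24 h is the only filled symbol at a single time, and the averaged values of SERPINA9, MYBL1 and LMO2 are filled.

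MME, the membrane metallo-endopeptidase known as CD10 and a standard diagnostic marker of germinal centre and Burkitt cells, had a pair of probe sets above the filter. The brighter, 203434_s_at, had means of 3555 ± 441 (control) and 3578 ± 241 (miR-28) at 12 h, a difference of 0.02 ± 0.09 (adjusted p 0.983). At 24 h control cells gave 2558, 3029 and 3455 (3048 ± 337) and miR-28 cells 2974, 3607 and 4418 (3586 ± 490), a difference of 0.23 ± 0.09 (adjusted p 0.169). On this probe set 4 of 6 miR-28 arrays lay above every control array. The other, 203435_s_at, had 5 of 6 above, with medians of 2187 and 2534 and a difference of 0.23 ± 0.10 (adjusted over probe sets 0.246). Neither probe set was called. At 24 h control cells were at 0.22 ± 0.10 below their own level at 12 h (adjusted p 0.197), and that comparison shares the control arrays with the one between genotypes.

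GCSAM, a membrane-associated adaptor that restrains the motility of germinal centre B cells, had means, with control first and miR-28 second, of 1818 ± 240.5 and 1872 ± 155 at 12 h, and of 2022 ± 215 and 2192 ± 267 at 24 h. The differences were 0.05 ± 0.09 (95% interval -0.14 to 0.24) and 0.11 ± 0.09 (-0.08 to 0.30). CD38, the ectoenzyme that consumes NAD and a surface marker shared with plasma cells, averaged 4291 ± 212 and 4331 ± 366 at 12 h and 4065 ± 359 and 4060 ± 353 at 24 h. Its intervals ran from -0.14 to 0.16 at 12 h and from -0.15 to 0.15 at 24 h. These intervals contain 0 and bound the differences of both genes, but do not show equal levels.

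S1PR2 and P2RY8 are receptors that couple through the G protein GNA13 and keep B cells clustered within the follicle. S1PR2 (227684_at) had means in the same order of 1213 ± 218 and 1102 ± 99.2 at 12 h, and 1002 ± 75.1 and 1040 ± 104 at 24 h. The differences were -0.12 ± 0.10 (95% interval -0.33 to 0.08) and 0.05 ± 0.10 (-0.16 to 0.26). P2RY8 averaged 2783 ± 227 and 2647 ± 130 at 12 h, and 2538 ± 261 and 2568 ± 244 at 24 h. Its differences were -0.07 ± 0.07 (-0.22 to 0.08) and 0.02 ± 0.07 (-0.14 to 0.17). Arrays of both genotypes overlapped for both receptors at both times, although all 6 miR-28 arrays of P2RY8 lay below the control median at 12 h. The other S1PR2 probe set (208537_at) and that of LMO2 (231049_at) lay below the filter, at 4.84 to 28.9 and 3.80 to 93.5.

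With time no marker was called, while 6.14% of genes were called between 24 h and 12 h in control cells and 4.66% in miR-28 cells. In control cells the largest differences were those of LMO2 (-0.27 ± 0.12, adjusted p 0.19), S1PR2 (-0.26 ± 0.10, adjusted p 0.146) and MME. In miR-28 cells they were those of SERPINA9 and GCSAM (0.22 ± 0.10, adjusted p 0.196). Without control array A2 at 12 h S1PR2 was at -0.33 (adjusted p 0.0467). For SERPINA9 the groups at 12 h and the control group at 24 h lay within 1 SD of each other, with the miR-28 group at 24 h the lowest. For MYBL1 the order from low to high was miR-28 at 12 h, miR-28 at 24 h, control at 12 h and control at 24 h. For LMO2 it was miR-28 at 24 h, miR-28 at 12 h, control at 24 h and control at 12 h. Neighbouring groups in both orders differed by less than their summed SDs.

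Over all 8 markers the median difference was -0.10 at 12 h, with 5 below 0, and 0.01 at 24 h, with 4 below 0. The medians over all 11380 genes were 0.01 and 0.02. The groups of arrays overlapped for all 8 markers at 12 h too, where 0.852% of genes had groups that did not overlap.

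The transcription and chromatin regulators of the germinal centre programme were described from a list of 16 genes, all measured. At 24 h 4 of the 16 were called, all lower in miR-28 cells, where 5.35% of all genes were called (296 higher and 313 lower). They were TCF3, an E protein central to Burkitt cells (-0.44 ± 0.11, adjusted p 0.0204), EZH2, the histone H3 lysine methyltransferase of Polycomb complexes (-0.39 ± 0.10, adjusted p 0.0166), MEF2C, a factor related to MEF2B (-0.26 ± 0.06, adjusted p 0.0189), and POU2AF1, the octamer coactivator (-0.23 ± 0.06, adjusted p 0.032). EZH2 went from 3354 in control to 2552 in miR-28 cells, and POU2AF1 from 19300 to 16480. With each array centred on its median none of the 4 was called, and without miR-28 array B2 at 24 h 1 was. Without control array A3 or miR-28 array B1 at 24 h 2 were.

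TCF3 had 10 other probe sets above the filter, which ran from -0.64 to 1.07 at 24 h, and MEF2C had others at 0.09 ± 0.17 and -0.27 ± 0.07. At 12 h none of the 16 was called, and the largest statistics were those of HDAC9 (-0.43 ± 0.13, adjusted p 0.195) and BCL6 (-0.20 ± 0.07, adjusted p 0.271). The list median was -0.12 at 12 h and -0.16 at 24 h.

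Of 22 other genes raised in germinal centre B cells or in lymphomas of that type, 20 were measured. At 12 h 1 was called as higher and 2 as lower, where 0.536% of all genes were called. At 24 h 2 were called as higher and 3 as lower, against 5.35% of all genes. At 12 h RGS13, which shortens chemokine receptor signals, was lower by 1.01 (log2, adjusted p 0.0259) and the cyclin gene CCND3 was lower by 0.48 (adjusted p 0.0313). MAML3, a coactivator of Notch signalling, was higher by 1.18 (adjusted p 0.0362). At 24 h CCND3 was lower by 0.86 ± 0.10, from 10260 to 5672 (adjusted p 2.26e-05), RGS13 by 0.76 and SSBP2 by 0.35. The other SSBP2 probe sets above the filter ran from -0.34 to -0.02. MAML3 (1.34 ± 0.26, from 241 to 638) and the antigen receptor subunit CD79B (0.24 ± 0.07) were higher. Another CD79B probe set was at 0.10 ± 0.38. The CCND3 and MAML3 calls at 24 h held without each single array in turn, while that of RGS13 held in 17 of 24 such fits and that of CD79B in 11. The calls at 12 h held in 18 (RGS13), 14 (CCND3) and 17 (MAML3) of 24. The list median was -0.12 at 12 h and -0.09 at 24 h.

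Genes that signal below S1PR2 and P2RY8, or make and clear their lipid ligands, were listed with other receptors such as S1PR1, CXCR4 and CXCR5. This list held 23 genes, of which 15 were measured above the filter. None was called at either time. The largest statistics at 24 h were those of the G protein subunit GNAI2 (0.38 ± 0.12, adjusted p 0.0726) and the chemokine receptor CXCR5 (0.41 ± 0.18, adjusted p 0.217). At 12 h the kinase ROCK2 had the largest statistic (-0.23 ± 0.10, adjusted p 0.442). GNA13 itself was at -0.17 ± 0.08 at 24 h (adjusted p 0.229). In 3 of 39 alternative fits 1 gene of the list was called as higher at 24 h.

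Light zone genes, which mark germinal centre B cells that receive help signals, gave calls in both directions among 14 measured. At 24 h 2 were called as higher and 1 as lower in miR-28 cells, where 5.35% of all genes were called. CD86, a costimulatory ligand, was higher in miR-28 cells at 24 h (0.49 ± 0.08, adjusted p 0.000627; 2006 in control and 2822 in miR-28 cells), and its other probe sets gave 0.31 ± 0.09 and 0.45 ± 0.13. CD40, the receptor for T-cell help, was higher by 0.28 ± 0.08 (adjusted p 0.0463), while its other probe sets gave 0.48 ± 0.16, 0.12 ± 0.20 and -0.12 ± 0.17. EGR1, an immediate early transcription factor, was lower by 0.90 ± 0.26 (adjusted p 0.0426), but its other probe sets gave -0.68 ± 0.16 and 0.31 ± 0.38. The CD40 call held in 9 of 24 fits without 1 array and that of EGR1 in 13. Both calls were lost without both arrays of high ACTB ratio. CD86 fell from 12 h to 24 h in control cells by 0.90 (adjusted p 1.4e-06), and that comparison shares the control arrays at 24 h. In control cells 13 of the 14 genes were lower at 24 h and 6 were called, where 6.14% of all genes were called (289 lower). In miR-28 cells 12 were lower at 24 h and 4 were called, where 4.66% of all genes were called (228 lower). Between miR-28 and control cells at 12 h none was called, with the largest statistics for NFKBIA (0.29 ± 0.11) and EBI3 (0.44 ± 0.38).

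No plasma cell gene was called among 10 measured and no gene of the activated-B-cell type of lymphoma among 14, at either time. With 0.536% of all genes called at 12 h and 5.35% at 24 h, fewer than 1 call would come from either list at the same share. The nearest at 24 h were CD27 (0.29 ± 0.09, adjusted p 0.0528), SSR4 (0.29 ± 0.11), the pro-apoptotic gene BMF (0.51 ± 0.15, adjusted p 0.0534) and IL16 (0.30 ± 0.10, adjusted p 0.0848). At 12 h they were CD27 (0.13 ± 0.09), MZB1 (0.20 ± 0.15), BMF (0.39 ± 0.15) and BATF (-0.46 ± 0.31). The medians of these lists at 24 h were 0.22 and 0.03. With arrays centred on their medians 1 plasma cell gene and 2 of the other list were called as higher at 24 h.

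**Figure D3:**
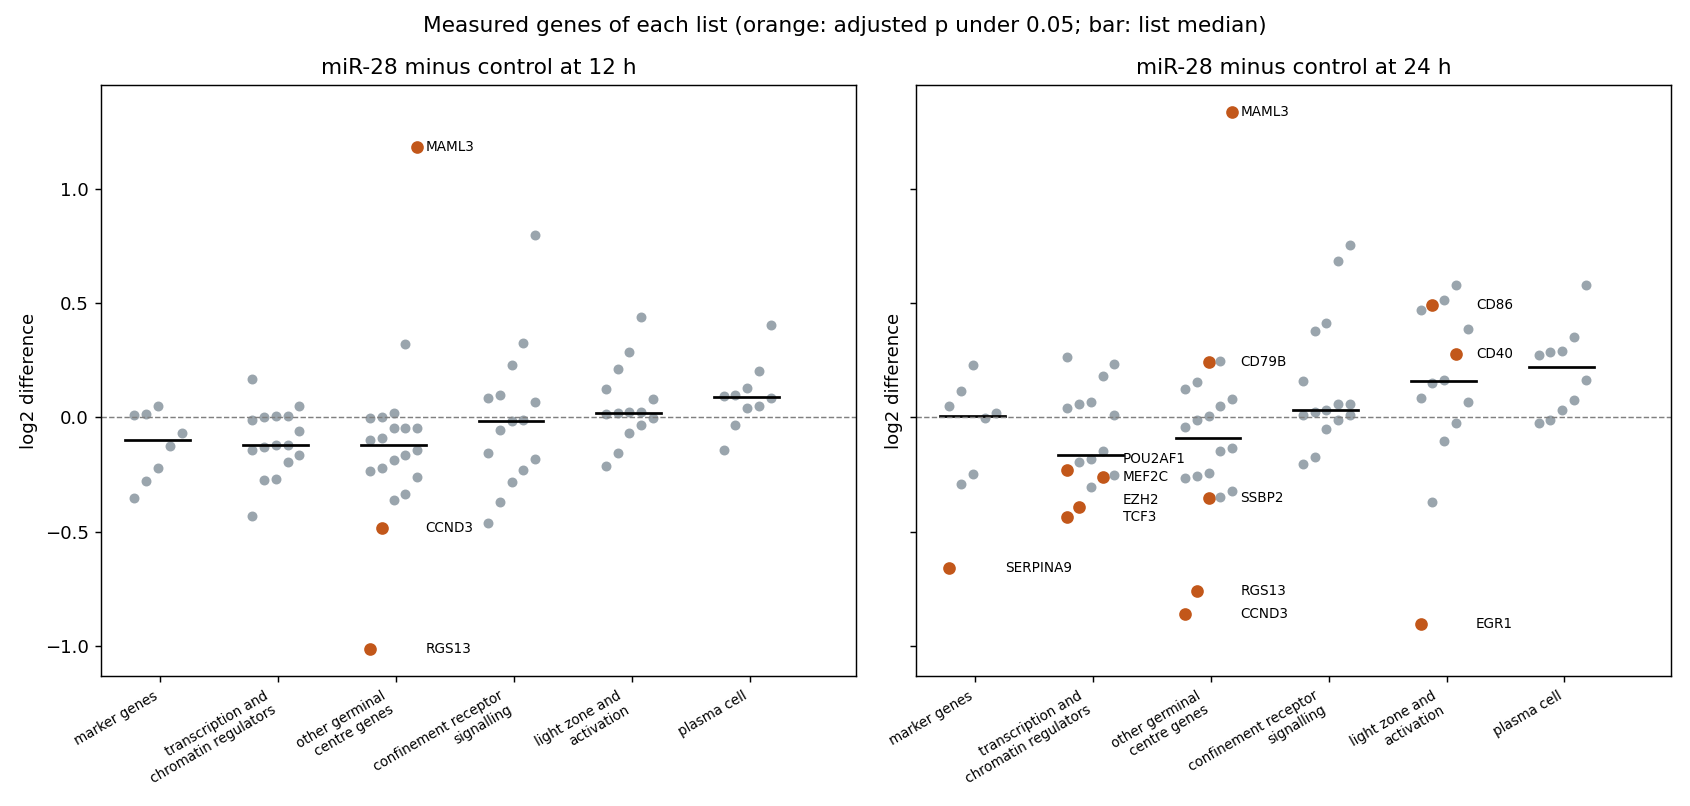
Difference between miR-28 and control cells (log2, vertical axis) for the measured genes of 6 lists on the horizontal axis, at 12 h on the left and 24 h on the right. Each point is a gene, orange points have an adjusted p under 0.05 in limma and are named, and bars are list medians. At 24 h the 4 called regulators all lie below 0, and RGS13, CCND3 and MAML3 are called at both times.

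Relatives and partners of the markers were listed as 27 genes, 20 of them measured. At 24 h 3 of the 20 were called, all lower in miR-28 cells, where 5.35% of all genes were called. At 24 h MYB and MYBL2, the other two members of the family of MYBL1, were lower by 0.46 ± 0.13 (adjusted p 0.0361) and 0.47 ± 0.12 (adjusted p 0.0199), and MEF2C was also called. MYB gave 0.02 at 12 h and MYBL2 -0.23, with no call. With arrays centred on their medians none of the 3 was called at 24 h, and without miR-28 array B1 or B2 at 24 h 1 was. LYL1 and LDB1, partners of LMO2, were at 0.15 ± 0.14 and 0.21 ± 0.18. Another LDB1 probe set was at 0.05 ± 0.22 at 24 h. SERPINB9, a serpin of another clade, was at -0.18 ± 0.08 (adjusted p 0.183). Its other probe sets were at 0.03 ± 0.23 and -0.53 ± 0.22 at 24 h. At 12 h the largest statistics were those of HDAC5 (1.11 ± 0.36, adjusted p 0.251) and MEF2C (-0.16 ± 0.06, adjusted p 0.391).

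Over the 24 arrays the genes whose log2 values followed SERPINA9 most closely were PIGL (r = 0.81), SMIM19 (0.77) and CTSC (0.75), and those that ran most opposite were CAT (-0.83), TRAF5 (-0.80) and COTL1 (-0.79). These are descriptions chosen among 11380 genes, over arrays that share groups and populations. Of the 6 genes, PIGL and SMIM19 were called as lower and CAT and TRAF5 as higher at 24 h, while CTSC and COTL1 were not called.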

How the data were processed

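Expression was measured on 24 arrays, 6 for each vector and time. The authors deposited 1 intensity per probe set, computed with MAS5 per the submitters' processing notes; its version is not given in the sources used here. Intensities were converted to log2(intensity + 8). Of 54675 probe sets, 62 were controls, 41091 carried a single gene symbol, 1801 several and 11721 none. The brightest probe set stood for a gene, and genes with a mean log2 above 6.108, the median of all probe sets, were tested. One limma 3.58.1 fit (R 4.3.3, statmod 1.5.0) on 24 arrays had vector by time as groups, with Benjamini-Hochberg adjustment over all genes. Population was a random block (consensus correlation -0.0229). As this correlation was negative, the block did not widen the standard errors between vectors. Without the block, calls at 12 h, at 24 h and averaged were 52, 531 and 646 genes, against 61, 609 and 858 with it. The procedure was tested on simulated data. No arrays were identical, and arrays of a group correlated at 0.954 to 0.969.

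The members and gene lists were chosen with earlier results of these data known. Named are all members, every gene of the other lists called at 12 h or 24 h or, where a list had none at a time, the 2 with the largest statistics, and 3 genes most like and 3 most opposite each member called at 12 h or 24 h, which was SERPINA9. A few genes more (GNA13, LYL1, LDB1, SERPINB9 and cell type markers) were chosen after their values were seen. The averaged effect, the comparison of populations and the alternatives for other lists were added after seeing the data. Alternatives covered pseudocount, filter, scaling, probe set choice, blocks, populations and single arrays. 1 gene that this rule would name at 12 h is not reported here. Array number limits the precision.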

Additional observations from a re-analysis of the deposited data

Results flagged for a closer look

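On MYBL1 probe set 231268_at, the miR-28 array B1 at 24 h stood at an intensity of 23.89, away from the other 5 arrays of its group, whose median with it was 159. In linear intensity the nearest array was at 119.5 and the highest at 275.1, so the gap was smaller than the spread of the other 5. On the log2 scale the gap was 0.635 of the range of the group, above Dixon's 95% critical value for 6 arrays. Of 40 groups examined this was the only one, and chance alone gives about 1 in 20. The brighter MYBL1 probe set showed no such array.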

How the results depend on the processing

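SERPINA9 at 24 h kept its direction in all 38 alternatives that measured it (-0.80 to -0.51, adjusted p 0.00705 to 0.29) and its call in 35, including 24 of 24 fits without 1 array (-0.73 to -0.60). The count of 1 marker called at 24 h became 0 with the filter at the 75th percentile, which SERPINA9 did not pass, with population means as the unit, with population A alone and with population B alone. The last 3 settings use fewer arrays or values, and population means called 0 of all genes at either time. The count over probe sets, 1, became 0 in these 4 settings and with no filter, and ran from 0 to 1 without single arrays (0 without control array B3, or miR-28 arrays B1 or B2, at 24 h). The 3 calls of the averaged effect became 2 with the filter at the 75th percentile (without SERPINA9) or with the mean of probe sets (without MYBL1), 1 with the most variable probe set and 0 with population means, A alone or B alone, and stayed at 3 to 3 without single arrays. For change with time, calls ran from 0 to 1 without single arrays in control and from 0 to 1 in miR-28 cells, and reached 1 in miR-28 cells with population A alone.

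The sign turned for small differences. With population A alone SERPINA9 at 12 h was 0.129, GCSAM -0.0227, S1PR2 0.0509 and CD38 -0.07, P2RY8 at 24 h -9e-04, and the averages of S1PR2 and CD38 0.0499 and -0.0948. With population B alone MME at 12 h was -0.025, LMO2 at 24 h 0.0101 and CD38 at 24 h 0.117. Median centring gave MME -0.0108 and CD38 -0.0157 at 12 h and CD38 0.0541 at 24 h, where quantile normalization gave 0.0037. The mean of probe sets gave MME -0.0363 at 12 h. Without both arrays of high ACTB ratio CD38 was -0.0117 at 12 h and -0.0214 averaged. Without single arrays MME ran from -0.0339 to 0.0651, GCSAM from -0.0054 to 0.106 and CD38 from -0.016 to 0.0455 at 12 h, P2RY8 from -0.027 to 0.0526 and CD38 from -0.0402 to 0.0324 at 24 h, and averaged CD38 from -0.0148 to 0.022. The most variable probe set gave TCF3 0.123, MEF2C 0.0926, CD40 -0.12 and EGR1 0.311 at 24 h. The cause was not tested.

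Over all genes the calls at 12 h and 24 h, 61 and 609, became 30 and 368 with no filter, 64 and 818 with the filter at the 75th percentile, 14 and 248 with the most variable probe set, 0 and 39 with A alone and 0 and 36 with B alone. Replicate labels showed no pairing of control with miR-28 arrays within a time. Deviations of control and miR-28 arrays with the same label correlated at 0.0099 to 0.0371 at 12 h and -0.0938 to 0.0683 at 24 h. At each time 1 of 6 was closest to its own label. Whether labels pair the 12 h and 24 h arrays of a population was not examined, and the main comparisons over time did not pair by label. With the label as a replicate block, 1 marker was called at 24 h (SERPINA9, -0.66, adjusted p 0.0148), 0 at 12 h and 3 averaged, with 61 and 617 genes, and EGR1 was not called (adjusted p 0.0635). Precision is limited by 2 populations per vector and by dim probe sets such as MYBL1 231268_at.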
